A study of Arabidopsis thaliana with 6 samples.

Results

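NAR1 and NBP35 are proteins of the cytosolic iron-sulphur (Fe-S) assembly pathway. NBP35 is a scaffold on which clusters are first built, and NAR1 acts later, where finished clusters are handed to enzymes of the cytosol and nucleus. Clients of the pathway include enzymes of DNA replication, DNA repair and DNA demethylation. The 71 probe sets described here stood higher in nar1-4 seedlings than in wild type by a log2 difference above 0.585 (1.5-fold) within replicate number 1 and again within replicate number 2. They are 71 of 22746 non-control probe sets on the array. Another 10 probe sets met the same threshold and were left out by name, among them efflux carriers, a glutaredoxin and iron deficiency genes. The members were thus chosen by their nar1-4 and wild-type values, so their nar1-4 differences are given as a description, without a test.

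Whole seedlings of Arabidopsis thaliana, accession Col-0, were taken at 2 weeks from MS plates. They carried the genotypes wild type, nar1-4/- or nbp35-3/-, and no other allele or agent is named. Each genotype had 2 arrays, described as biological replicates and numbered 1 and 2. What "/-" after an allele stands for is not explained, and the source name of the nbp35 samples carries the allele number nbp35-4 where title and genotype carry nbp35-3. Values are log2 expression levels, and every pair of values below is given as number 1 and then number 2.

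Arrays resembled each other by number more than by genotype. Across probe sets, arrays of the same number correlated at 0.9873 to 0.9943, and the arrays of a genotype with each other at 0.9679 to 0.9698. The nbp35-3 array of number 2 stood apart within its number, at 0.9873 with wild type and 0.9884 with nar1-4, where those correlated at 0.9911. It correlated with the number 1 arrays of nar1-4 at 0.9772 and of wild type at 0.9754, both above its own genotype's other array (0.9698). What the arrays of a number share is not stated, and per the labels 3 samples, named by codes that are tied to no genotype, were labelled from less RNA. Both leaf markers that could be measured, LHCB4.1 and RCA, had wild-type means of 12.94 and 13.42, and the root marker PYK10 had 12.08, so RNA of both organs was in the samples. In whole seedlings, a change in the share of cells of a type and a change in RNA per cell cannot be told apart.

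Within number 1 the members stood 0.59 to 2.03 above wild type in nar1-4 (median 0.86), and within number 2 0.59 to 2.95 (median 0.96). At 2-fold or more in both numbers there were 15 members. The threshold was passed in both numbers by 0.356% of all probe sets, while 0.343% were lower by as much in both and 0.132% differed by as much in opposite directions. Both nar1-4 arrays lay above both wild-type arrays for 43 members, a pattern that 9.16% of all probe sets showed. For the other 28 the groups overlapped. The median gap between the 2 wild-type arrays was 0.68 over members and 0.25 over all probe sets. Wild-type means of members ran from 2.96 to 10.35 with a median of 5.71, close to the median of 5.78 over all probe sets. Under the first quartile (3.48 to 3.58 by array) on both wild-type arrays lay 4 members. Others, such as ATPMEPCRB, AT5G52750 and JRG21, lay under it on 1 wild-type array.

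**Figure D1:**
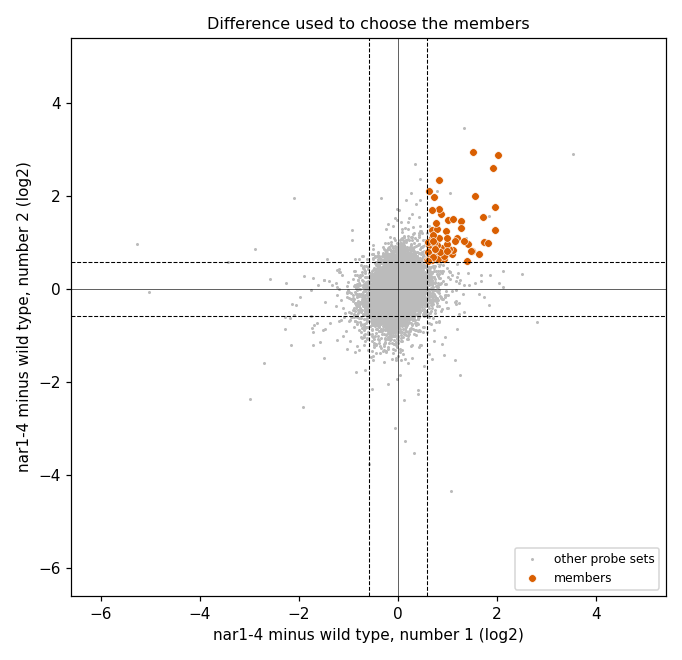
Log2 difference of nar1-4 from wild type within number 1 (x axis) and within number 2 (y axis) for 22746 probe sets, with the 71 members in orange and dashed lines at 0.585 and -0.585. The members fill the upper right corner because they were chosen there, and grey points in that corner are the 10 probe sets left out.

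Just inside the threshold, 5 members had a smaller difference of 0.586 to 0.610, among them AT1G24530 and AT5G52390. Just outside, 5 probe sets reached 0.561 to 0.581. The auxin response gene IAA29, at 0.78 and 0.57, was 1 of these.

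Of the 71 members, 32 named a single gene, 1 named several and 38 none. The 32 genes all matched a locus, 9 on chromosome 1, 3 on chromosome 2, 6 on chromosome 3, 3 on chromosome 4 and 11 on chromosome 5. Only AT1G72060 and AT1G72070 are neighbours in the order of protein-coding genes.

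**Figure D2:**
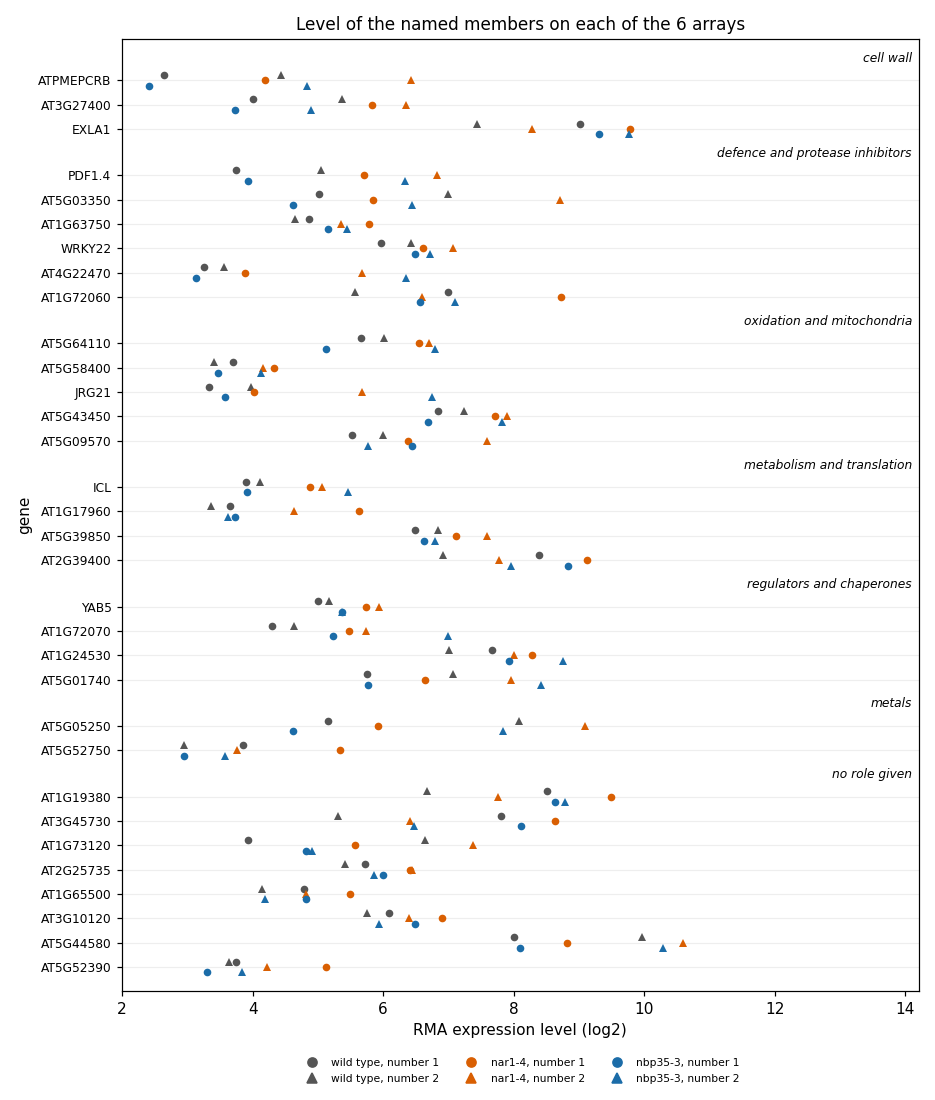
Log2 level of the 32 named members on all 6 arrays, by role, with colour for genotype, circles for number 1 and triangles for number 2. In each number the nar1-4 symbol lies right of the wild-type symbol, as the rule requires, while the nbp35-3 circle mostly lies near the wild-type circle and the nbp35-3 triangle lies right of the wild-type triangle for most genes.

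Cell wall genes were 3 of the named members. ATPMEPCRB, a pectin methylesterase, which removes methyl groups from pectin, stood at 2.64 and 4.43 in wild type, 4.19 and 6.43 in nar1-4, and 2.42 and 4.82 in nbp35-3. The nar1-4 array of number 1 was thus below the wild-type array of number 2, and the nbp35-3 arrays were close to wild type in each number. AT3G27400, of the pectate lyase family that cuts pectin, had 4.01 and 5.37 in wild type, 5.82 and 6.36 in nar1-4, and 3.72 and 4.89 in nbp35-3. Here both nar1-4 arrays were above all others, and nbp35-3 was below wild type in each number. EXLA1, an expansin-like wall protein, stood at 9.01 and 7.43 in wild type, 9.78 and 8.29 in nar1-4, and 9.30 and 9.76 in nbp35-3. In number 2 the nbp35-3 array was above the nar1-4 array, and nbp35-3 differed from wild type by 0.29 and 2.33.

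Genes placed under defence and protease inhibition were 6 of the named members, with AT4G22470 placed there by its protein domain alone. PDF1.4, a plant defensin, which is a small antimicrobial peptide, had the highest nar1-4 difference of the named members, 3.64-fold over both numbers. It stood at 3.74 and 5.05 in wild type, 5.70 and 6.82 in nar1-4, and 3.93 and 6.33 in nbp35-3. The nbp35-3 level was thus near wild type in number 1 and near nar1-4 in number 2. AT5G03350, of the legume lectin family, had 5.02 and 6.99 in wild type, 5.84 and 8.71 in nar1-4, and 4.62 and 6.44 in nbp35-3, the lowest array of each number. AT1G72060, annotated as a serine protease inhibitor, had 6.99 and 5.57 in wild type, 8.72 and 6.59 in nar1-4, and 6.57 and 7.09 in nbp35-3, which put nbp35-3 lowest in number 1 and highest in number 2.

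AT4G22470, whose protein has a domain of the protease inhibitor, seed storage and lipid transfer family, showed the same kind of split. It stood at 3.26 and 3.56 in wild type, 3.89 and 5.68 in nar1-4, and 3.13 and 6.35 in nbp35-3. Its gap between numbers in nbp35-3 was the widest among the 6 genes of this group. AT1G63750, a receptor gene of the TIR-NB-LRR class that detects pathogen effectors, had 4.86 and 4.64 in wild type, 5.78 and 5.35 in nar1-4, and 5.16 and 5.45 in nbp35-3. Both mutants were above both wild-type arrays for this gene. WRKY22, a transcription factor of the response to microbial patterns, differed from wild type by 0.63 and 0.65 in nar1-4 and by 0.52 and 0.29 in nbp35-3, and here too both mutants lay above both wild-type arrays.

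Oxidative enzymes and a mitochondrial protein formed a group of 5. JRG21 is a 2-oxoglutarate-dependent oxygenase that inactivates the hormone jasmonate by hydroxylation. It stood at 3.33 and 3.97 in wild type, 4.02 and 5.67 in nar1-4, and 3.58 and 6.75 in nbp35-3, with the nbp35-3 array of number 2 highest. AT5G43450, of the same broad oxygenase class, had 6.85 and 7.23 in wild type, 7.71 and 7.89 in nar1-4, and 6.69 and 7.82 in nbp35-3. The class III peroxidase gene AT5G64110, of a family that acts in the cell wall, had 5.66 and 6.02 in wild type, 6.54 and 6.71 in nar1-4, and 5.13 and 6.80 in nbp35-3. In both genes the nbp35-3 array was lowest of number 1, and in number 2 it stood close to nar1-4. A further peroxidase gene, AT5G58400, differed by 0.62 and 0.75 in nar1-4 and by -0.24 and 0.72 in nbp35-3.

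AT5G09570, a small protein of the cysteine-motif family of the mitochondrial intermembrane space, ran the other way in nbp35-3. It had 5.52 and 5.99 in wild type, 6.38 and 7.59 in nar1-4, and 6.44 and 5.76 in nbp35-3. The nbp35-3 level was near nar1-4 in number 1 and slightly below wild type in number 2. It was the sole member that stood higher in nbp35-3 than in nar1-4 within number 1, by 0.06.

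Among genes of metabolism and translation, ICL encodes isocitrate lyase, the glyoxylate cycle enzyme by which germinating seedlings turn stored oil into sugar. ICL stood at 3.89 and 4.11 in wild type, 4.88 and 5.07 in nar1-4, and 3.92 and 5.45 in nbp35-3. Both nar1-4 arrays were above both wild-type arrays, and nbp35-3 matched wild type in number 1 and was the highest array in number 2. AT1G17960, annotated as a threonyl-tRNA synthetase, had 3.66 and 3.36 in wild type, 5.62 and 4.63 in nar1-4, and 3.74 and 3.63 in nbp35-3. For it the nar1-4 arrays were clear of the other 4. The nbp35-3 mean differed from wild type by only 0.17 ± 0.35 (SE, n = 2 arrays each). The spread in that SE was estimated from all 6 arrays, nar1-4 included. AT2G39400, of the alpha/beta hydrolase family, had 8.38 and 6.92 in wild type, 9.13 and 7.77 in nar1-4, and 8.83 and 7.95 in nbp35-3. AT5G39850, a ribosomal protein gene of the small subunit, was 0.62 and 0.75 above wild type in nar1-4 and 0.14 above and 0.05 below it in nbp35-3.

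Regulators and chaperones gave 4 members. AT1G72070, which has a DnaJ chaperone domain, stood at 4.29 and 4.63 in wild type, 5.47 and 5.73 in nar1-4, and 5.23 and 6.99 in nbp35-3. Each mutant array was above both wild-type arrays, and this was the sole member past 0.585 in nbp35-3 in both numbers (0.94 and 2.36), which 0.127% of all probe sets were. Its neighbour AT1G72060 was below wild type in nbp35-3 in number 1. AT1G24530, a WD40 repeat protein gene, differed by 0.25 and 1.75 in nbp35-3. AT5G01740, of the family of nuclear transport factor 2, had 5.75 and 7.07 in wild type, 6.64 and 7.95 in nar1-4, and 5.77 and 8.42 in nbp35-3. YAB5, a YABBY factor of leaf polarity, had 4.996 and 5.16 in wild type, 5.73 and 5.94 in nar1-4, and 5.36 and 5.37 in nbp35-3. Its nbp35-3 arrays lay between the other genotypes, with little gap between numbers.

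Of the 2 genes tied to metals, AT5G05250 is known to respond to iron deficiency, and AT5G52750 has a heavy metal transport or detoxification domain. AT5G05250 stood at 5.16 and 8.08 in wild type, 5.92 and 9.09 in nar1-4, and 4.62 and 7.83 in nbp35-3. The level was higher in number 2 in every genotype, and within each number nar1-4 was highest and nbp35-3 lowest. AT5G52750 had 3.86 and 2.95 in wild type, 5.34 and 3.76 in nar1-4, and 2.95 and 3.57 in nbp35-3. In nbp35-3 it was the named member furthest below wild type in number 1, and above it in number 2. Its nbp35-3 level in number 1, 2.95, was under the first quartile of the arrays (3.48 to 3.58).

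A further 8 named members have no role given here. AT1G19380 stood at 8.51 and 6.67 in wild type, 9.49 and 7.76 in nar1-4, and 8.64 and 8.78 in nbp35-3. AT3G45730 had 7.80 and 5.31 in wild type, 8.63 and 6.42 in nar1-4, and 8.12 and 6.47 in nbp35-3. Both were lower in number 2 in wild type and nar1-4, and in nbp35-3 AT1G19380 was at nearly the same level in both numbers. AT1G73120 had 3.93 and 6.64 in wild type, 5.57 and 7.38 in nar1-4, and 4.82 and 4.91 in nbp35-3. It was the single named member below wild type by more than 0.585 in nbp35-3 in number 2. AT2G25735 had 5.72 and 5.41 in wild type, 6.42 and 6.43 in nar1-4, and 6.00 and 5.87 in nbp35-3, so that the 3 genotypes did not overlap. AT1G65500 had 4.78 and 4.14 in wild type, 5.48 and 4.82 in nar1-4, and 4.81 and 4.19 in nbp35-3, which followed wild type closely. AT3G10120 had 6.08 and 5.76 in wild type, 6.90 and 6.40 in nar1-4, and 6.48 and 5.93 in nbp35-3, between the other genotypes in each number. AT5G44580 differed by 0.82 and 0.64 in nar1-4 and by 0.09 and 0.33 in nbp35-3, and AT5G52390 by 1.39 and 0.59 in nar1-4 and by -0.43 and 0.21 in nbp35-3.

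The 39 members without a single gene name covered a similar range. Their mean nar1-4 difference was 0.60 to 2.45 (median 0.95), beside 0.64 to 1.87 (median 0.93) for the 32 named. The largest was 254818_at, at 6.78 and 6.63 in wild type, 8.81 and 9.50 in nar1-4, and 6.79 and 8.07 in nbp35-3, which again equalled wild type in number 1 and lay between the genotypes in number 2. Next came 267026_at, with 2.83 and 3.09 in wild type, 4.75 and 5.69 in nar1-4, and 3.01 and 2.74 in nbp35-3, where nbp35-3 stayed at the wild-type level. Of these 39, 23 were past 0.585 in nbp35-3 in number 2 and 1 in number 1, beside 17 and 3 of the 32 named.

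The nbp35-3 arrays played no part in the choice of members, but wild type did, so low wild-type readings raise both mutants' differences together. Over all members the nbp35-3 difference from wild type had a median of 0.06 within number 1 and 0.68 within number 2, beside 0.01 and 0.01 over all probe sets. The mean over both numbers had a median of 0.34, which therefore rests on the array of number 2. In number 1, 4 of 71 members were above wild type by more than 0.585, where 1.35% of all probe sets were, and 5 were below by as much (background 1.37%). In number 2, 40 members were above (background 3.82%) and 2 below (background 4.96%). Within 0.585 of wild type in both numbers were 26 members, as 89.5% of all probe sets were. Both nbp35-3 arrays lay above both wild-type arrays for 18 members (background 11.1%). With 1 nbp35-3 array in each number, the difference between the numbers was not tested.

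**Figure D3:**
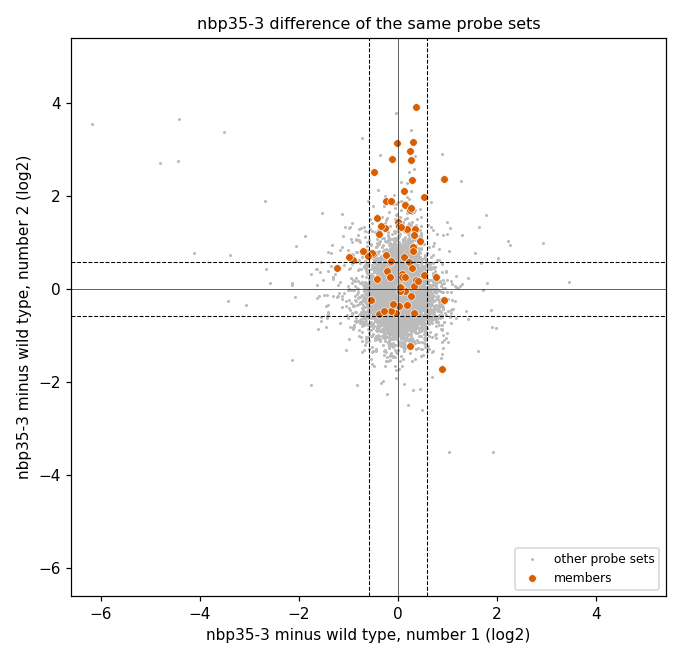
Log2 difference of nbp35-3 from wild type within number 1 (x axis) and number 2 (y axis), for the same probe sets as in the plot of nar1-4 differences, with members in orange and dashed lines at 0.585 and -0.585. Most members lie between the lines along the x axis, while 40 of 71 lie above the upper line of the y axis.

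Set against nar1-4, nbp35-3 was lower for 70 of 71 members in number 1, with a median of -0.81. In number 2 it was lower for 42, with a median of -0.27. Of all 22746 probe sets, 11245 were lower in number 1 and 10337 in number 2. By more than 0.585 it was lower for 52 members in number 1 (background 2.06%) and for 23 in both numbers (background 0.404%). In number 2, 27 members were below nar1-4 by more than 0.585 (background 4.36%) and 17 above it by as much (background 3.59%). The nbp35-3 mean lay between wild type and nar1-4 for 41 members, below wild type for 16 and above nar1-4 for 14. Over all 22746 probe sets it lay below wild type for 10838 and above nar1-4 for 12449. Those counts overlap, since the nar1-4 mean itself lay below wild type for 11736 probe sets. They are thus no match for the split of the members, and the share of all probe sets in between is not given here. These comparisons share arrays with the rule, and nothing is read from their direction.

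No member passed the limma test in nbp35-3. With Benjamini-Hochberg adjustment over 22746 probe sets, 0 probe sets were called for nbp35-3 against wild type (0% of the table), and 139 (0.611%) had an unadjusted p under 0.05, 4 of them members. The 5 named members with the highest mean difference of nbp35-3 from wild type were AT1G72070 at 1.65 ± 0.58 (SE), JRG21 at 1.52 ± 1.15, AT4G22470 at 1.33 ± 1.17, EXLA1 at 1.31 ± 0.71 and AT1G19380 at 1.12 ± 0.81. Those with the lowest were AT5G03350 at -0.47 ± 1.24, AT1G73120 at -0.42 ± 1.04, AT5G05250 at -0.39 ± 1.70, AT3G27400 at -0.38 ± 0.60 and AT5G52750 at -0.14 ± 0.62. Each SE includes the gap between the numbers, and the adjusted p of every member was 1. For nbp35-3 against nar1-4 limma called 0 (0%), with 217 (0.954%) at an unadjusted p under 0.05, 14 of them members. For nar1-4 against wild type, the contrast of the rule, it called 0 (0%), with 196 (0.862%) at an unadjusted p under 0.05, 19 of them members.

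The change from number 1 to number 2 is another contrast, but 4 of its 6 arrays are those the rule used. Counts of members called by limma are therefore a description, set beside the share of all probe sets called. No p is given for a single member. Limma with genotype in the model called 23.4% of all probe sets for it, 52.3% of them higher in number 2 (38.5% after centring each array on its median). Of the members 24 were called, 17 higher in number 2 (background 12.3%) and 7 lower (background 11.2%). AT5G05250 was higher in number 2 by 3.10 ± 0.11 (SE), AT5G03350 by 2.22 ± 0.21 and ATPMEPCRB by 2.15 ± 0.14. PDF1.4, AT5G01740, JRG21, AT3G27400 and AT5G44580 were also higher in number 2. AT3G45730 differed by -2.12 ± 0.18 and AT2G39400 by -1.23 ± 0.14, and AT1G65500 and AT3G10120 were lower too. Without the nbp35-3 array of number 2, 22 members were called lower (background 12.0%) and 22 higher (background 13.5%).

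The members that were lower in number 2 did not behave alike in the 3 genotypes. In wild type and in nar1-4 alike, 19 members were lower in number 2 by more than 0.585, with median changes of -1.47 and -1.49 (background 5.56%). In nbp35-3 the same 19 had a median change of 0.14, with 11 higher and 8 lower. Over all 1265 probe sets that met the same condition the nbp35-3 median was -0.73, with 56 higher and 1209 lower. The medians of those 1265 were -0.95 in wild type and -0.95 in nar1-4. AT1G19380, EXLA1 and AT1G72060 were among the 19 members, each with an nbp35-3 level in number 2 at or above that in number 1. For the 16 members higher in number 2 in both wild type and nar1-4, median changes were 1.64 and 1.80 (background 7.31%). Over all 1663 probe sets of this kind those medians were 1.08 and 1.03. In nbp35-3 all 16 members were higher (median 2.41), as were 1598 of the 1663, whose nbp35-3 median was 0.85. These are descriptions, since each rests on 1 array per genotype and number.

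**Figure D4:**
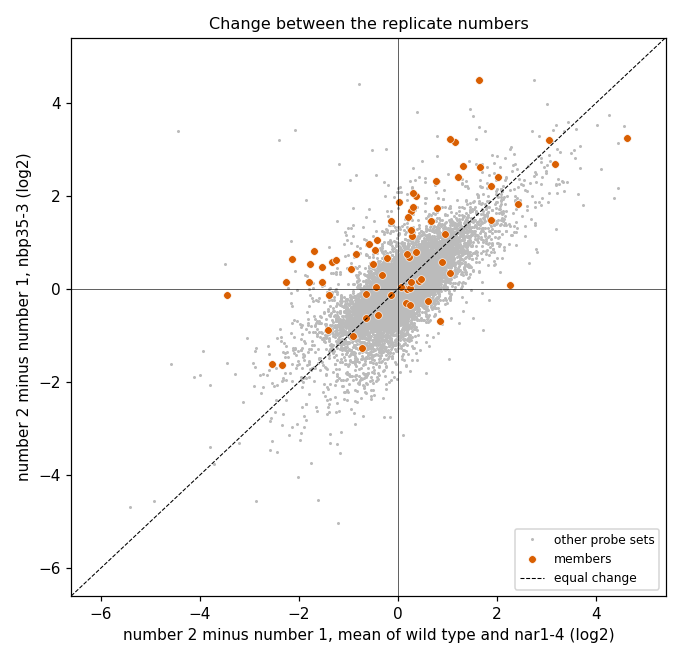
Log2 change from number 1 to number 2 in nbp35-3 (y axis) against the mean change in wild type and nar1-4 (x axis), with members in orange, other probe sets in grey and a dashed line of equal change. Members lie mostly above the line, and those on the left, lower in number 2 in the other genotypes, often lie near 0 in nbp35-3.

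A seed gene was higher on the nbp35-3 array of number 2. Of 6 seed genes written as markers, M17 and M10 were measured, and their summed log2 level was 6.99 on that array and 4.63 to 5.43 on the other 5. M17, a late embryogenesis gene, stood at 3.99 there and at 2.18 to 2.71 elsewhere. M10 stood at 3.00 there and at 2.45 to 2.73 elsewhere, under the first quartile of the arrays throughout, and the other 4 had no probe set with a single gene name. The summed level of the 2 leaf markers was 26.28 to 26.67 on all arrays, and that of 3 root markers was 24.30 on the nbp35-3 array of number 1, 22.13 on that of number 2 and 22.77 to 23.10 on the others. The root markers did not go one way in nbp35-3. EXPA7 differed from wild type by 0.65 and -0.52 and EXPA18 by 0.80 and -0.15, while PYK10 differed by -0.20 and -0.13. The part of these differences in the members' nbp35-3 levels was not tested.

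Genes of related responses, from lists written for this study's theme, are given as counts. A gene counts as measured where some probe set names it alone, and limma called 0 of the measured genes in nar1-4 or nbp35-3. Several measured genes are among those left out of the members by name, most of which were past the threshold in nar1-4 in both numbers. Of all probe sets 0.356% were past it, and for genes that passed, the direction in nar1-4 was fixed by the rule. Of 17 iron deficiency genes 3 were measured. BHLH101 and AT1G47400 are left-out genes that passed the rule. The other is PYE, a regulator of iron homeostasis, at 0.14 and 0.67 in nar1-4. In nbp35-3 PYE differed by 0.19 and 0.07. Of 21 WRKY factors 3 were measured, and both WRKY22 and the left-out WRKY53 passed the rule. WRKY53 differed by -0.32 and 0.17 in nbp35-3. The third, WRKY6, differed by 0.39 and -0.75 in nar1-4 and by 0.24 and -0.67 in nbp35-3. Of 17 mitochondrial stress responders 5 were measured, and 3 of them are left-out genes that passed the rule. Of the other 2, AT2G32020 differed by 0.27 and 0.47 in nar1-4 and by -0.32 and -0.43 in nbp35-3, and NDB2, an alternative NADH dehydrogenase, differed by -0.21 and 0.54 in nar1-4 and by -0.20 and -0.43 in nbp35-3. The glutathione transferases, 6 measured of 24, had medians of -0.23 and -0.19, and 3 were lower in nar1-4 in both numbers. The calcium, touch and wound responders, 5 measured of 20, had medians of 0.08 in nar1-4 and -0.10 in nbp35-3. In nar1-4 1 was lower in both numbers, the calmodulin-like CML38 at -0.21 and -0.36, and 1 higher, STZ at 0.31 and 0.76. The CC-type glutaredoxins, 7 measured of 8, include 3 left-out genes. Of the other 4, AT4G15690 differed by 0.25 and 0.75 in nar1-4 and by 0.90 and 1.16 in nbp35-3. ROXY2 differed by -0.02 and 0.37 in nar1-4 and by 0.06 and 0.39 in nbp35-3. ROXY1 was below wild type throughout, by -0.31 and -0.23 in nar1-4 and by -0.35 and -0.17 in nbp35-3. GRX480 differed by -0.13 and -1.51 in nar1-4, and by -0.01 (level with wild type) and -0.72 in nbp35-3. ORA47 of the ethylene response factors differed by -0.17 in nar1-4, and ATLIG4 of the DNA damage response by -0.11, each the single measured gene of its list. Of the flower list only AGL24 was measured (-0.74 in nar1-4 and -0.31 in nbp35-3), and of 16 genes of salicylic acid and defence 0 were measured.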

How the data were processed

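Biotin-labelled cRNA of 6 whole-seedling samples was hybridised to arrays of 22810 probe sets. The authors deposited log2 expression values, made with RMA per the submitters' processing notes (version not given in the sources used here), which corrects background, quantile-normalizes arrays together and summarises probes. Having 2 arrays per genotype limits the precision.

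Here 64 control probe sets were set aside. Names came from the platform annotation (13513 probe sets with 1 gene, 503 with several, 8730 with none) and symbols from RefSeq's genes for TAIR10.1. Limma 3.58.1 in R 4.3.3 (lmFit, eBayes, two-sided, Benjamini-Hochberg, threshold 0.05) was fitted to all probe sets with 1 mean per genotype (3 residual degrees of freedom), and with a term for number for the change between numbers. Both fits were run on simulated data. For the fit of genotype means those data held no change between numbers, unlike the real arrays. That run therefore cannot show how the fit performs where such a change is present. The members, lists, roles and tests were chosen with earlier results of these data known. Every member naming 1 gene was to be named, with values on all arrays for the 25 with the largest smaller within-number difference and for the 5 highest and 5 lowest in nbp35-3. Of 181 list entries 175 matched their name, in 13 lists. Roles are general knowledge. Sequences were not used here.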

Additional observations from a re-analysis of the deposited data

How the results depend on the processing

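The number of members was 71, and 98 at a threshold of 0.5, 73 after another quantile normalization (67 of the 71 kept), 74 after median centring (70 kept) and 71 with a filter on dim probe sets. It was 15 at a threshold of 1, 32 among probe sets naming 1 gene, and 192 when the mean of both differences had to pass. Using a single number, an alternative added with the data in view, gave 288 to 614. Limma called 0 probe sets in each of the 3 genotype comparisons under every alternative run, leaving out an array included. With the replicate block it also called 0. For nar1-4 against wild type, 1009 probe sets (4.44%) then had an unadjusted p under 0.05, 49 of them members. For nbp35-3 against wild type there were 1076 (4.73%), with 17 members, and for nbp35-3 against nar1-4 1263 (5.55%), with 35 members. Each comparison shares arrays with the rule, so these member counts are a description. Deviations from genotype means correlated between same-numbered arrays at 0.81, 0.69 and 0.67, but the labels do not say that a number marks a shared batch. For number 2 against number 1, 5325 probe sets were called, and 1896 at an adjusted p of 0.01. Leaving out an array gave 1715 to 5816, since it drops its genotype from the estimate. Of the 5325 calls 52.3% were higher, and 38.5% after median centring, as array medians were 0.09 higher in number 2. The median nbp35-3 difference over members was 0.09 to 0.40 under the other alternatives, and 0.06 to 0.68 with 1 nbp35-3 array. For the 32 named genes the direction of the nbp35-3 mean was the same under each normalization.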
